A study of Mus musculus with 8 samples.

Results

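The genes described here are 35 transcripts of the type I interferon response, measured in NK cells of the mouse spleen that did or did not carry the signal of a reporter for choline acetyltransferase (ChAT), the enzyme that makes acetylcholine. They were chosen by name as a fixed list, with earlier results of these data known. A probe was taken for a gene where its RefSeq accession mapped to that symbol, and the brightest probe over all arrays stood for the gene. Of the 35 genes, 33 had such a probe, out of 13607 genes tested in all, and no probe accession was matched to Mx1 or Mx2. All 33 were well above background on all 8 arrays, so none was lost to the filter on dim signals.

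RNA came from 4 pools of ChAT+ NK cells, called ChAT_positive here, and 4 pools of ChAT- NK cells, called ChAT_negative. NK cells were enriched magnetically and then divided by ChAT-eGFP, so the groups are defined by the fluorescence of a reporter, and each pool held cells of 2 to 4 mice. Age, strain, reporter construct and any treatment are not given in the sources used here. Nothing says that the pools came from separate mice, so p-values measure only the spread between these pools, which may be technical.

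Between 50.2% and 63.2% of the spots of an array were well above background and 0 were saturated, and the number of arrays limits the precision. The ChAT_positive arrays shared 1 slide and scan and the ChAT_negative arrays another, so in every comparison slide and group cannot be told apart. Levels are log2 intensities relative to the 75th percentile of each array, so a gene at 0 is as bright as that percentile, and a difference of 1 is 2-fold. Chat, the gene behind the reporter, ranged from 3.48 to 4.10 on ChAT_positive arrays and from 2.32 to 3.12 on ChAT_negative arrays, without overlap. All 10 NK cell markers checked were bright enough to test. So were all 10 B cell and all 8 T cell markers, so this does not identify the cells.

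Type I interferons are secreted proteins that warn cells of viral infection. They bind a receptor made of IFNAR1 and IFNAR2, whose kinases JAK1 and TYK2 phosphorylate transcription factors that include STAT2. STAT2 and IRF9 take part in a complex that binds the interferon-stimulated response element in the promoters of target genes and switches on proteins that block viral replication. NK cells carry this receptor, and type I interferon is a known activator of their killing.

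The response element is a promoter feature whose presence can be described without the array values. Its core was searched as GAAA, any 2 bases, and GAAA again, on both strands with overlapping matches counted separately, in RefSeq promoters of the GRCm38.p6 build that run from 250 bases before a gene's start to 50 after it. Of the 35 genes, 27 had a promoter in that table and 14 of these (51.9%) held the core, against 3.99% of all 27025 genes with a promoter of the same length. The 250 bases before the start are printed 5′ to 3′ on the gene's strand for 5 of them, because their transcripts are among those with the larger differences below, and capitals mark the core matches.
Isg15, chr4:156200819-156201068, minus strand: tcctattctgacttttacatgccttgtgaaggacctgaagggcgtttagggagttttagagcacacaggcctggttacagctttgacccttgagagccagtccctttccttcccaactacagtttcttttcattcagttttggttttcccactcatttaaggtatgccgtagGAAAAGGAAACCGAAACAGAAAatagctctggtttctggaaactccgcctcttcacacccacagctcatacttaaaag
Ifit3, chr19:34583279-34583528, plus strand: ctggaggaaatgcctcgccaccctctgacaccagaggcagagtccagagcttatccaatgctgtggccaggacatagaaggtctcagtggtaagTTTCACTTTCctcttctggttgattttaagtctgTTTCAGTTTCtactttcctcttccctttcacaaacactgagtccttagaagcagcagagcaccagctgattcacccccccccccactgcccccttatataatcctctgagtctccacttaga
Bst2, chr8:71537473-71537722, minus strand: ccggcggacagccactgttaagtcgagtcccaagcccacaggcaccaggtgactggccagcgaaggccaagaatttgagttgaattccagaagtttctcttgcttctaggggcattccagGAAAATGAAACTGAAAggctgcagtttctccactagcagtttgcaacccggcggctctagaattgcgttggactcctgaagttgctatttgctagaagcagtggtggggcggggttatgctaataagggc
Stat2, chr10:128270248-128270497, plus strand: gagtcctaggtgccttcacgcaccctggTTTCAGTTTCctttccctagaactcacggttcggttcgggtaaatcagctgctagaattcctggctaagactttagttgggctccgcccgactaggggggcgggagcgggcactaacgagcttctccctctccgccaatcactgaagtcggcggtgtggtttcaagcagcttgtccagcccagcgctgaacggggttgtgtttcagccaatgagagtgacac
Oas3, chr5:120777660-120777909, minus strand: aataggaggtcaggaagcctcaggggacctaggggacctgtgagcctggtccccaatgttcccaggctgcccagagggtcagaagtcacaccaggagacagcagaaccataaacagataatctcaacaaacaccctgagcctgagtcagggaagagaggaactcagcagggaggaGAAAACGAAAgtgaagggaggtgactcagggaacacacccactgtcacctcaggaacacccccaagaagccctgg
The Isg15 promoter held 3 overlapping matches, the first beginning 78 bases before the start. The Ifit3 and Bst2 promoters held 2 each, and those of Stat2 and Oas3 held 1 each. Matches in Ifit3 and Stat2 lay on the opposite strand and read TTTC, 2 bases, TTTC as printed. The median difference between the groups was 0.45 for the 14 genes with the core and 0.28 for the 13 without it. Genes without the core included Ifit2 and Cmpk2, whose differences of 0.92 and 0.60 were also among the larger ones. Whether the core goes with the size of the difference was not tested. A match describes the letters and not a bound factor.

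Every one of the 33 genes had a higher mean in the ChAT_positive pools, but the differences were small and none passed the unpaired test across all genes. The log2 differences ran from 0.02 for Adar to 0.92 for Oas2, with a median of 0.37, while the median of all 13607 genes tested was 0.03 and 53.1% of those genes had a higher mean in ChAT_positive pools. Of the 33, 9 were higher by 1.5-fold or more (5.28% of all genes were) and 0 by 2-fold. By limma with Benjamini-Hochberg adjustment 0 of 33 were called at an adjusted p under 0.05, where 2.81% of all genes were called higher and 5.96% in either direction. At an adjusted p under 0.1, 8 of 33 were higher, against 6.38% of all genes. At an unadjusted p under 0.05, 13 of 33 were higher (39.4%, against 12.9% of all genes), and for 7 of 33 the groups did not overlap (21.2%, against 9.37%). With the replicate number as a block in the limma fit, 10 of 33 were called higher (7.36% of all genes). The numbers are not stated to pair the samples, and same-numbered arrays correlated in their deviations at 0.54, 0.66, 0.52 and 0.03. Adar turned lower under quantile normalization and Ddx58 under another background correction (normexp), so that 32 of 33 were higher in each case. The number was 31 of 33 without ChAT_positive replicate 2, and also without ChAT_negative replicate 3. These shares describe genes that are known to move together, in a list chosen with earlier results of these data known. No test was made over the list.

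**Figure D1:**
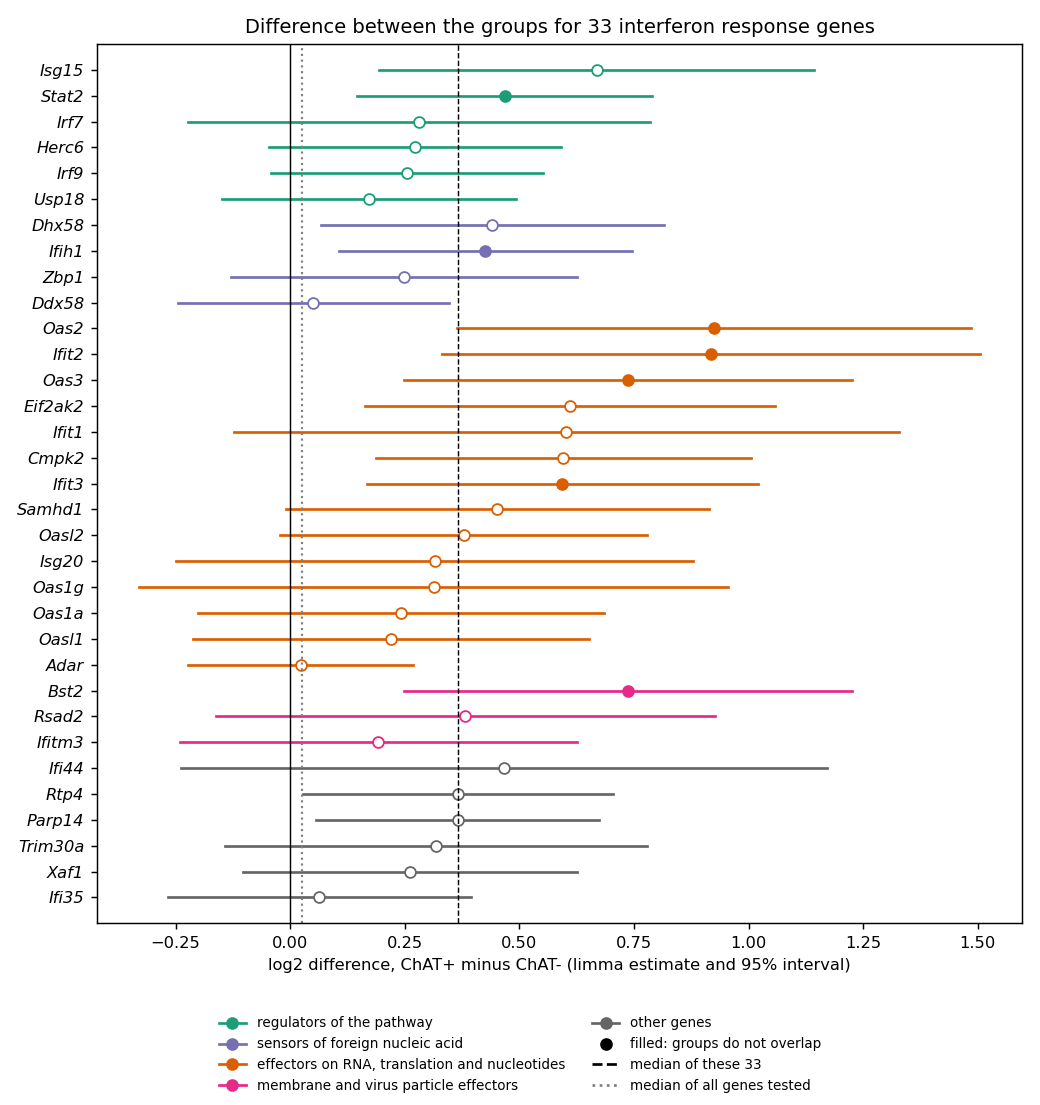
Log2 difference between the groups (ChAT_positive minus ChAT_negative) for the 33 measured genes, with the limma estimate as a point and its 95% interval as a line, coloured by role. Filled points mark the 7 genes whose groups did not overlap. All points lie right of 0, the dashed line is the median of the 33 genes (0.37) and the dotted line the median of all genes tested (0.03).

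The regulators of the response differed least by role. Stat2, the transcription factor that is specific to the type I complex, measured 3.31, 3.31, 3.17 and 3.00 in ChAT_positive pools and 2.96, 2.84, 2.65 and 2.48 in ChAT_negative pools. Every ChAT_positive pool lay above every ChAT_negative pool, and the difference was 0.47 (SE 0.14, 95% interval 0.15 to 0.79, limma adjusted p = 0.0854). Isg15, a ubiquitin-like protein that is attached to other proteins during the response, measured 4.91, 5.00, 4.78 and 4.54 against 4.66, 4.27, 3.77 and 3.85. ChAT_negative replicate 1 lay inside the ChAT_positive range and the other 3 below it. The Isg15 difference was 0.67 (SE 0.21, adjusted p = 0.0932), or 1.59-fold, and a second Isg15 probe gave 0.28.

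The remaining regulators overlapped between the groups. Irf9, the DNA-binding partner of STAT2, had a difference of 0.25 (95% interval -0.04 to 0.55), and Irf7, the factor that amplifies interferon production, one of 0.28 (-0.22 to 0.79). Herc6, the mouse ligase for ISG15, had one of 0.27 (-0.05 to 0.59). Usp18 removes ISG15 from proteins and dampens receptor signalling. It measured 2.55, 2.81, 2.86 and 2.42 in ChAT_positive and 2.37, 2.71, 2.42 and 2.45 in ChAT_negative pools, and its difference of 0.17 (-0.15 to 0.49) was the smallest of the 6 regulators. Its groups lay across each other.

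None of the 4 sensors of foreign nucleic acid was called, and their differences ran from 0.05 to 0.44. Ifih1 encodes MDA5, a cytosolic sensor of long double-stranded RNA. It measured 2.22, 1.96, 2.04 and 2.03 in ChAT_positive pools against 1.88, 1.73, 1.61 and 1.33 in ChAT_negative pools. The groups did not overlap and the difference was 0.43 (SE 0.14, limma adjusted p = 0.108), with 0.70 by a second, dimmer Ifih1 probe. Ddx58 encodes RIG-I, a related sensor of RNA ends. It measured 3.15, 3.29, 3.16 and 2.95 against 2.92, 3.32, 3.03 and 3.07. The highest Ddx58 value of all was on a ChAT_negative array, and the difference of 0.05 had a 95% interval of -0.25 to 0.35, which leaves out a 1.5-fold change. Dhx58 encodes LGP2, a regulator of both sensors. It measured 3.13, 3.03, 3.04 and 2.81 against 2.98, 2.58, 2.31 and 2.37, a difference of 0.44 (0.07 to 0.82), with only ChAT_negative replicate 1 inside the ChAT_positive range. Zbp1, a sensor of left-handed nucleic acid that can trigger cell death, had a difference of 0.25 (-0.13 to 0.63).

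The largest differences were among the 14 effectors that act on RNA, translation and nucleotides, whose median was 0.52. Oas2, one of the synthetases that make a second messenger for the RNA-cutting enzyme RNase L, measured 0.32, -0.63, -0.32 and -0.33 in ChAT_positive pools and -0.65, -1.58, -1.13 and -1.29 in ChAT_negative pools. Its groups were separated by 0.02 log2 units, between ChAT_positive replicate 2 and ChAT_negative replicate 1. The difference of 0.92 (SE 0.25, 95% interval 0.36 to 1.48), or 1.90-fold, had the lowest adjusted p of the 33 genes (limma adjusted p = 0.0619). Oas3, another synthetase, measured -0.75, -1.37, -0.997 and -1.09 against -1.40, -2.02, -1.51 and -2.23, without overlap and with a difference of 0.74 (SE 0.22, adjusted p = 0.0781).

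Ifit2, which binds viral RNA and restrains its translation, measured 1.13, 0.97, 0.59 and 0.65 in ChAT_positive pools and 0.58, 0.08, -0.36 and -0.64 in ChAT_negative pools. ChAT_negative replicate 1 lay 0.0076 below the lowest ChAT_positive pool, and the other 3 lay well below. The difference was 0.92 (SE 0.26, limma adjusted p = 0.0708), or 1.89-fold. Ifit3, a partner of that family, measured 3.43, 2.90, 3.03 and 2.87 against 2.87, 2.42, 2.14 and 2.43, separated by 0.0042, with a difference of 0.59 (SE 0.19, adjusted p = 0.0962). Ifit1, the member that recognises RNA caps lacking host methylation, had a similar difference of 0.60 but a wider spread (SD 0.66 among ChAT_negative pools) and an interval of -0.12 to 1.33. Genes of the Ifit and Oas families have close paralogs, so their probes may share signal.

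Of the other effectors, Eif2ak2 encodes PKR, the kinase that stops translation on sensing double-stranded RNA, and had a difference of 0.61 (0.16 to 1.06). Cmpk2, a mitochondrial nucleotide kinase, had one of 0.60 (0.19 to 1.01), with 0.88 by a second, dimmer probe. Samhd1, which depletes the nucleotides that viruses need, had one of 0.45 (-0.01 to 0.91). All 3 had overlapping groups. Oasl2, Isg20, Oas1g, Oas1a and Oasl1 had differences between 0.22 and 0.38, each with an interval that included 0. The second Oas1a probe gave -0.05, the only one of 12 second probes that pointed the other way, and that of Oas1g was well above background on 0 arrays. Second probes of Xaf1, Herc6 and Zbp1 gave larger differences than the brighter ones, 0.69, 0.58 and 0.56. Adar, an RNA-editing enzyme with an interferon-driven isoform, measured 2.15, 2.11, 2.05 and 2.28 against 2.23, 2.11, 2.03 and 2.13. Its groups lay on top of each other, with an interval of -0.22 to 0.27.

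Among effectors at membranes and virus particles, Bst2 had the widest separation of the groups. It encodes tetherin, which holds budding virus at the cell surface. Bst2 measured 3.86, 4.10, 4.21 and 3.67 in ChAT_positive pools and 3.44, 2.61, 3.40 and 3.44 in ChAT_negative pools. The closest pools of the groups were 0.23 apart, the widest gap of the 7 genes without overlap, and ChAT_negative replicate 2 lay far below its group. The difference was 0.74 (SE 0.22, 95% interval 0.25 to 1.23, limma adjusted p = 0.0784). Ifitm3, which blocks virus entry from endosomes, measured 4.18, 3.82, 4.00 and 3.68 against 4.22, 3.41, 3.64 and 3.65. Its highest value was on ChAT_negative replicate 1, and the difference was 0.19 (-0.24 to 0.63). Rsad2 encodes viperin, which makes a chain-terminating nucleotide, and had a difference of 0.38 (-0.16 to 0.93).

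**Figure D2:**
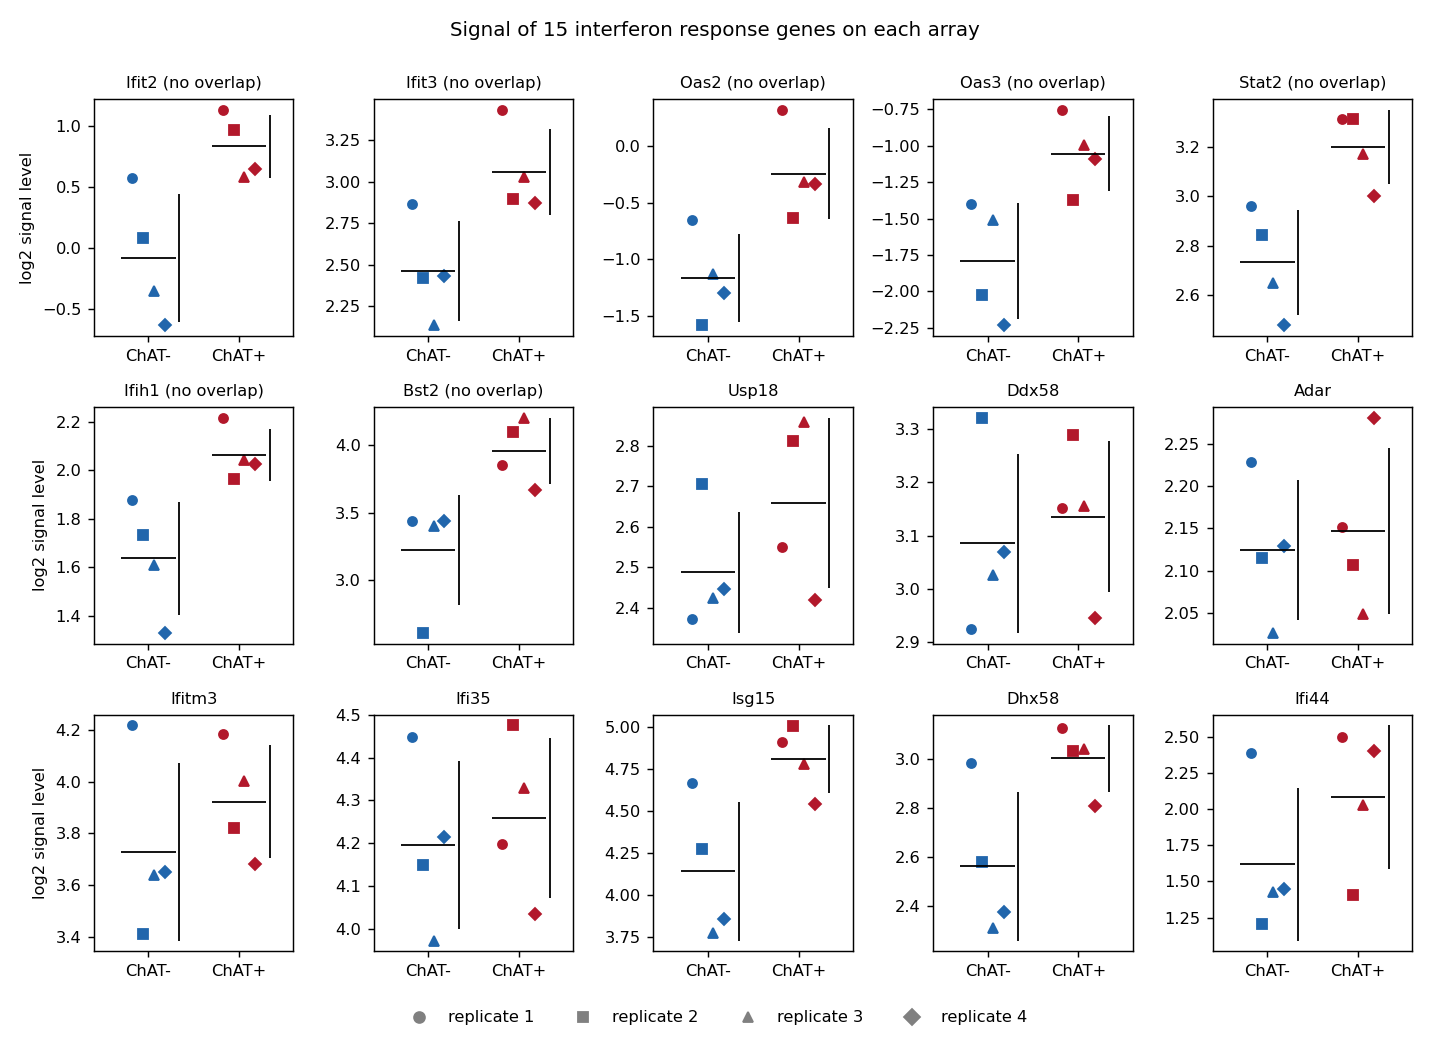
Log2 signal relative to the array's 75th percentile for 15 genes, with ChAT_negative arrays in blue and ChAT_positive arrays in red, marker shape for the replicate number, a horizontal line for the group mean and a vertical line for ± 1 SD (n = 4 each). The vertical scale differs by panel and does not start at 0. The first 7 panels are the genes without overlap, and in most panels ChAT_negative replicate 1 (blue circle) is the highest of its group.

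The 6 other genes had a median difference of 0.34. Parp14, an ADP-ribosyltransferase, had a difference of 0.37 (0.06 to 0.67), and Rtp4, a chaperone-like protein with antiviral activity, one of 0.37 (0.03 to 0.70). Trim30a had a difference of 0.32 and Xaf1, a pro-apoptotic protein, one of 0.26, each with an interval that included 0. Ifi44 had the widest scatter of the 6, at 2.50, 1.41, 2.03 and 2.40 against 2.39, 1.21, 1.43 and 1.45. Replicate 2 was the lowest of both groups for Ifi44, and its difference was 0.47 (-0.24 to 1.17). Ifi35 measured 4.20, 4.48, 4.33 and 4.03 against 4.45, 4.15, 3.97 and 4.21, a difference of 0.06 (-0.27 to 0.39) between groups that lay across each other.

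By a two-sided exact permutation test p was 0.0286 for each of the 7 genes without overlap, the smallest that 4 arrays against 4 allow. Groups without overlap always give this value, so it restates the lack of overlap and is no further support. The genes varied together over the arrays. ChAT_positive replicate 1 was the highest of its group for 19 of 33 genes and ChAT_positive replicate 4 the lowest for 20. ChAT_negative replicate 1 was the highest of its group for 28 of 33 genes, and it reached the ChAT_positive range for 22. The median deviation of the 33 genes from their own means over all arrays was 0.36, 0.20, 0.19 and 0.03 on ChAT_positive replicates 1 to 4 and 0.19, -0.20, -0.40 and -0.35 on ChAT_negative replicates 1 to 4. One ChAT_negative pool was therefore about as high as the middle ChAT_positive pools, and the other 3 were lower than every ChAT_positive pool.

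**Figure D3:**
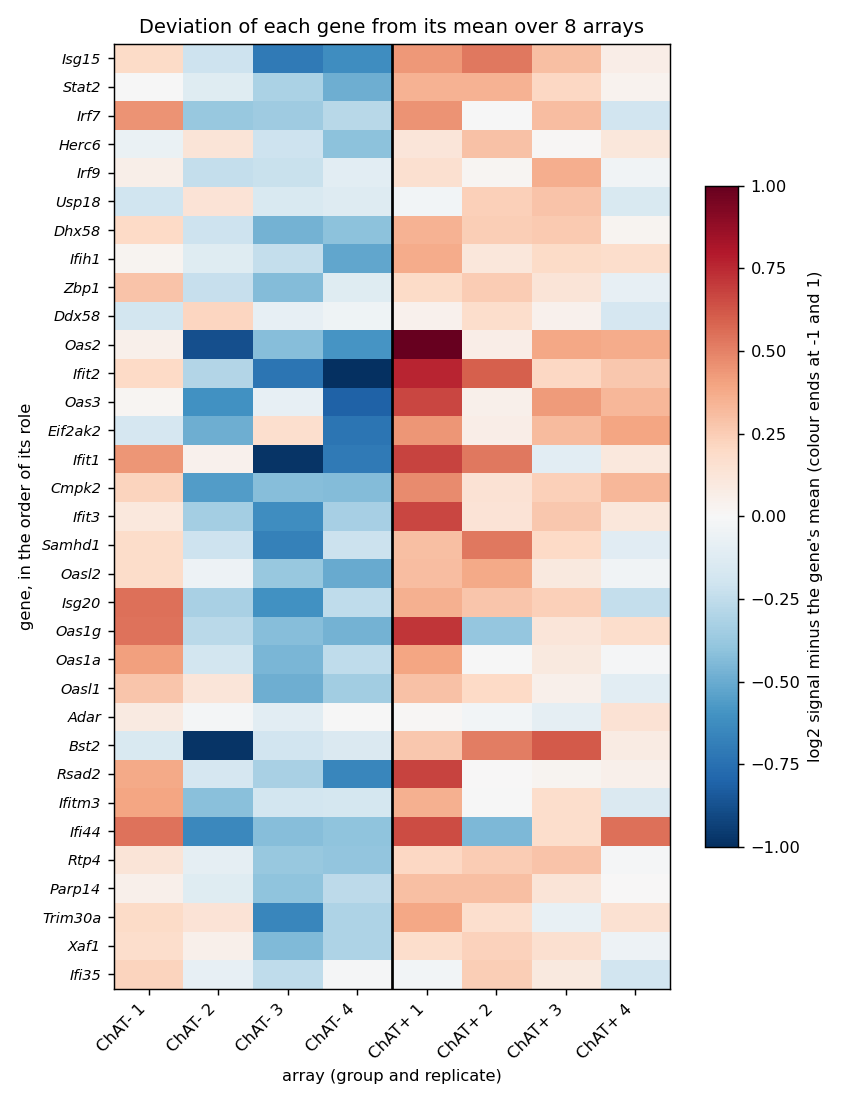
Log2 signal of each of the 33 genes (rows, in order of role) on each array (columns, ChAT_negative left of the line and ChAT_positive right), minus the gene's mean over the 8 arrays. Red is above and blue below that mean. ChAT_negative replicate 1 is above the mean for 27 of 33 genes, against 7, 1 and 0 genes on ChAT_negative replicates 2, 3 and 4.

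The number of genes that passed moved with the arrays and settings used. Without ChAT_negative replicate 1, 4 of 33 genes were called higher by limma (Ifit2, Oas2, Cmpk2 and Isg15), against 2.25% of all genes in the same fit, and the median difference was 0.51. With all 8 arrays, a trended and robust variance called 5 of 33 (3.53% of all genes) and array weights called 6 (4.24%). Without any one of the other 7 arrays 0 genes were called, and the median ran from 0.28 without ChAT_negative replicate 4 to 0.43 without ChAT_positive replicate 4.

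**Figure D4:**
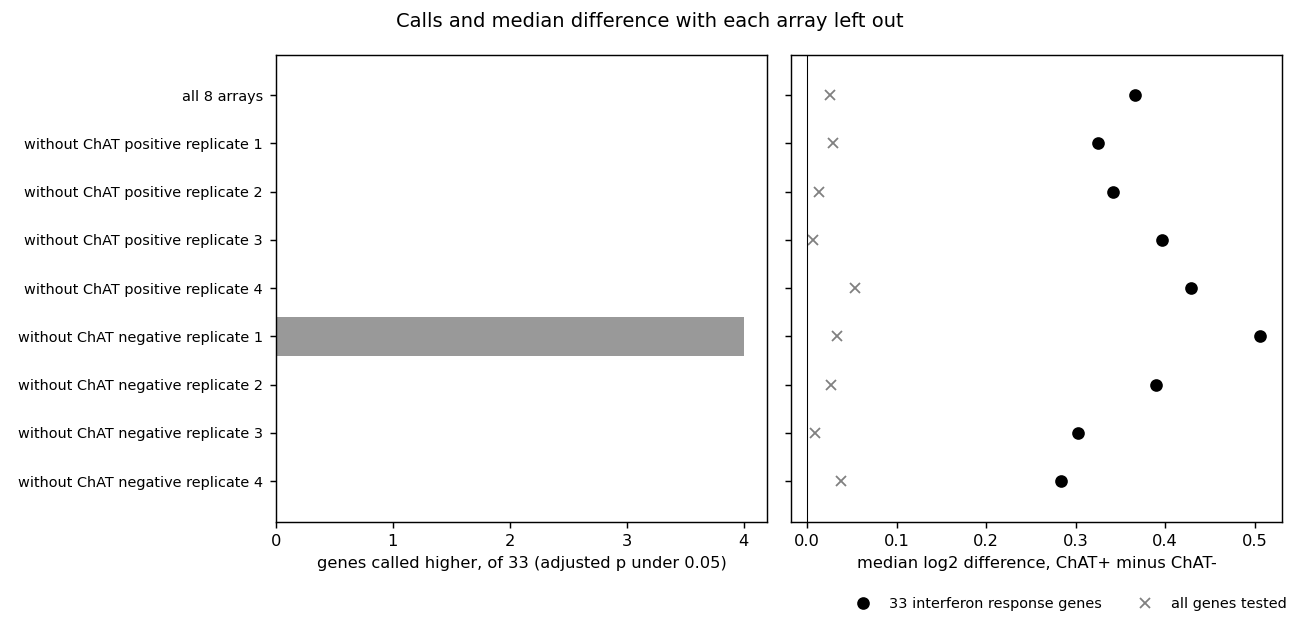
Left, the number of the 33 genes called higher by limma (adjusted p under 0.05) with all arrays and with each array left out. Right, the median log2 difference of the 33 genes (points) and of all genes tested (crosses). The 1 bar above 0, at 4 genes, is the fit without ChAT_negative replicate 1, where the median is also the highest, at 0.51.

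Upstream of these genes, the receptor and its kinases had differences close to 0. Ifnar1 and Ifnar2 had differences of -0.04 (95% interval -0.35 to 0.27) and 0.01 (-0.29 to 0.31), Jak1 one of -0.13 (-0.39 to 0.13) and Tyk2 one of -0.06 (-0.49 to 0.37). None of these 4 was called. Irf1, Irf2 and Irf5, factors that bind similar elements, had differences of 0.39, 0.39 and 0.31 without overlap between the groups, and were not called. Over all genes 9.37% were higher without overlap. Irf3 and Irf8, of the same family, had differences of 0.11 and -0.32 with overlapping groups, and were not called either.

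The interferon genes themselves were near or below background. Of 18 searched, 14 had a probe and 5 were bright enough to test, all 5 with lower means in ChAT_positive pools. A dim gene could pass the filter through 1 group alone, so these directions are not independent of the filter. Ifnab, an interferon alpha gene, was not well above background on any ChAT_positive array (0 of 4), was so on 4 of 4 ChAT_negative arrays, and was called lower (limma adjusted p = 0.00586). Ifnab passed the filter only through the ChAT_negative arrays, so the direction of its call was fixed before the test. It was at least 4.03-fold lower, a bound that takes each ChAT_positive array at its dimmest well-measured signal where Ifnab lay under it. This call held whichever array was left out, but those fits kept the genes chosen with all 8 arrays. Interferon alpha genes are close paralogs whose probes may share signal. Ifnb1 was well above background on 1 ChAT_positive and 3 ChAT_negative arrays, with a difference of -0.36 (-1.32 to 0.61). Of 10 tested genes of the pathways that induce interferon, 1 was called higher, against 2.81% of all genes. It was Tlr7, a receptor for single-stranded RNA, with a difference of 0.75 (limma adjusted p = 0.038). Only leaving out ChAT_positive replicate 2 or ChAT_negative replicate 1 kept the Tlr7 call, and removing any other array ended it.

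Of 45 other interferon-stimulated genes tested, 35 had higher means in ChAT_positive pools, and their median was 0.27. Of these, 4 were called higher (2.81% of all genes were) and 0 lower: Tor3a by 0.78, Ifit1bl1 by 0.97, Slfn8 by 0.71 and Sp100 by 0.65. At an unadjusted limma p under 0.05, 16 were higher and 1 lower. Ifit1bl2 went the other way from Ifit1bl1, with a difference of -0.61 (-1.17 to -0.05). Its groups overlapped and it was not called. With 1 array left out the number called ran from 0 to 4. Leaving out ChAT_positive replicate 1, ChAT_positive replicate 3 or ChAT_negative replicate 4 ended the Tor3a call. That of Ifit1bl1 was kept only without ChAT_positive replicate 2 or ChAT_negative replicate 1, that of Slfn8 only without ChAT_negative replicate 2 and that of Sp100 only without ChAT_negative replicate 4. Interferon-inducible GTPases are a family that attacks the vacuoles of intracellular parasites and also responds to interferon gamma. Of 16 GTPases tested, 8 were called higher, against 2.81% of all genes. This family too has close paralogs whose probes may share signal, so the 8 may not be separate observations. The median of the 16 was 0.48, and 3 to 6 were called with 1 array left out. Tgtp1, Gbp10 and Gbp6 were higher by 1.16, 1.06 and 0.95, and their calls held whichever array was left out. That of Tgtp2 was lost whichever array was left out. The GTPases were not raised on ChAT_negative replicate 1, where their median deviation was -0.21 against 0.19 for the type I response genes. The difference between the lists was not tested.

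Markers of other cells also differed between the groups. Of 10 B cell markers, 6 were called higher in ChAT_positive pools, against 2.81% of all genes, and the median of the 10 was 0.88. Their summed level (scaled linear signal) was 79.0 to 106 on ChAT_positive and 50.1 to 66.4 on ChAT_negative arrays. The part of these markers in the interferon response differences was not tested, and in sorted pools a change in the share of a cell type and a change of RNA per cell cannot be told apart. The median deviation of the B cell markers was 0.37, 0.35, 0.78 and 0.24 on ChAT_positive replicates 1 to 4 and -0.31, -0.71, -0.47 and -0.23 on ChAT_negative replicates 1 to 4. Its sign was that of the type I response genes on 7 of 8 arrays, all but ChAT_negative replicate 1. The medians of both lists were higher in ChAT_positive pools, so shared signs restate that group difference and are no sign of a link. Plasmacytoid dendritic cells are strong interferon producers and carry Bst2. Of 9 of their markers other than Bst2, 5 had higher means in ChAT_positive pools and the median was 0.28. By limma 0 were called higher and 2 lower, Ccr9 and Lair1, while at an unadjusted p under 0.05 there were 4 higher and 3 lower. Their summed level was 77.7 to 103 against 64.7 to 85.7. Tcf4, a transcription factor of these cells, had a difference of 0.48 without overlap (0.17 to 0.79, limma adjusted p = 0.0752). Siglech, their defining lectin, had a difference of -0.13 (-0.58 to 0.31).

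Of the remaining lists, 3 of 10 NK cell markers were called lower (Klrb1c, Klrk1 and Prf1), with a median of -0.60 and a summed level of 138 to 207 against 212 to 252. Over all genes 3.15% were called lower. Of 7 basophil and mast cell markers tested, 5 were called lower, with summed levels of 0.891 to 3.79 against 9.11 to 43.3. Neutrophil markers had 2 of 9 called lower, with summed levels of 3.07 to 35.5 against 20.5 to 60.3. Monocyte and macrophage markers had 0 of 8 called by limma (at an unadjusted p under 0.05, 2 higher, 1 lower), with 11.3 to 14.3 against 15.4 to 18.8. T cell markers had 0 of 8 called (0 at an unadjusted p under 0.05), with 12.4 to 23.9 against 12.6 to 20.2. Of 4 tested markers of conventional dendritic cells 1 was called lower, Clec9a, and the sums were 3.46 to 3.56 against 2.59 to 4.10. Clec9a, like Retnlg of the neutrophil and Cd200r3 of the basophil markers, passed the filter only through ChAT_negative arrays. Every marker list other than that of B cells had either lower or overlapping sums in ChAT_positive pools.

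**Figure D5:**
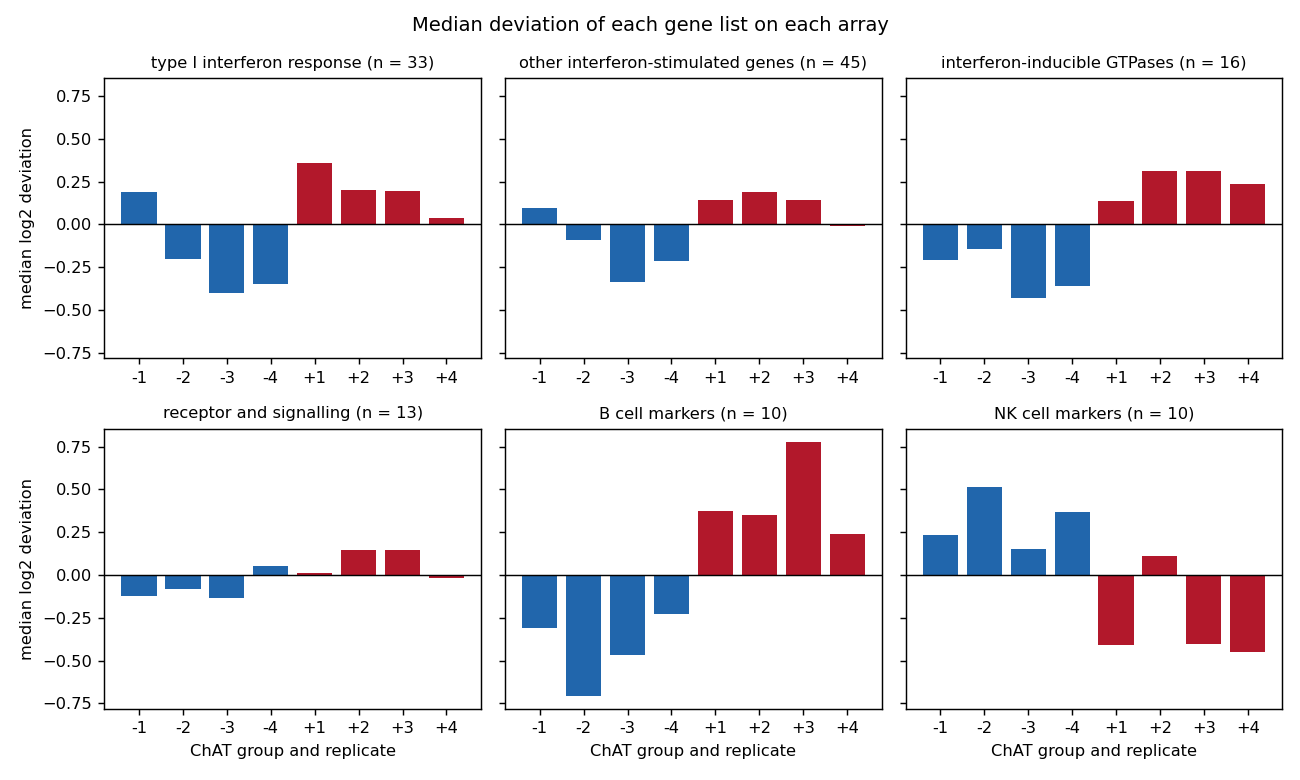
Median, over the genes of a list, of each gene's log2 signal minus its mean over the 8 arrays, for ChAT_negative (blue, -1 to -4) and ChAT_positive replicates (red, +1 to +4). The GTPases and B cell markers are above 0 on all 4 ChAT_positive and below 0 on all 4 ChAT_negative arrays, and the type I response genes follow the same signs except on ChAT_negative replicate 1, at 0.19.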

How the data were processed

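Per the file headers, the deposited scanner files were made with Agilent Feature Extraction 11.5.1.1, and hold spot intensities on a linear scale, background-subtracted within each array, with flags per spot. The authors' deposited value table holds log2 values that followed log2 of the same intensities less 1 constant per array, close to its 75th percentile. How its 31942 probes were chosen is unknown. Column medians ran from -0.72 to -0.63. The labels' protocols give 100 ng of RNA as input, amplified and labelled with 1 dye.

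Controls and 1344 spot values marked as outliers were dropped unless that emptied a probe, and spots of a probe were averaged on the log2 scale. Of 55681 probes, 26762 were named through a RefSeq table of GRCm38.p6. Genes needed a probe well above background on at least 4 of 8 arrays. Groups were compared in R 4.3.3 with limma 3.58.1 (eBayes after lmFit, no block, two-sided, Benjamini-Hochberg over 13607 genes, threshold 0.05). The procedure was tested on simulated data. Alternatives in scaling, background, filter, probe choice, variance, block and arrays were run. Normexp used the median spot signal.

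The members and lists were chosen with earlier results of these data known. Genes given array by array were those called, those without overlap between groups, and the largest and smallest difference of each role. A few of the list genes that were not called are also named. One gene of the receptor and signalling list is not reported here.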

Additional observations from a re-analysis of the deposited data

Results flagged for a closer look

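Among 66 groups of 4 arrays checked (33 genes in 2 groups), 3 held an array whose gap to the nearest other array, divided by the range of the group, was above Dixon's critical value for 4 samples, where chance gives about 1 in 20 groups. Rsad2 on ChAT_positive replicate 1 (ratio 0.936) measured 3.45 where the other 3 lay between 2.78 and 2.82. Irf7 on ChAT_negative replicate 1 (ratio 0.879) measured 2.55 against 1.72 to 1.82. Bst2 on ChAT_negative replicate 2 (ratio 0.951) measured 2.61 against 3.40 to 3.44.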

How the results depend on the processing

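The number of the 33 genes called higher was 0 as reported, 1 with median scaling (Ifit2, where 1.55% of all genes were called higher), 2 with quantile normalization (Rtp4 and Isg15, 3.76%), 2 with normexp (Ifit2 and Oas2, 3.39%), 1 with a filter at all 8 arrays (Oas2, 3.92%), 5 with a trended and robust variance (3.53%), 6 with array weights (4.24%) and 8 at an adjusted p under 0.1 (6.38%). It ran from 0 to 4 with 1 array left out, and was 0 with no filter or one at 1 of 8 arrays, with probes averaged, with the deposited table and without both arrays numbered 3. No setting called a gene lower. Median scaling moved the median of the 33 to 0.58 and that of all genes by 0.22, so relative to all genes it was 0.34, as reported. Replicate numbers are not stated to pair the samples. The correlations of deviations of same-numbered arrays were 0.54, 0.66, 0.52 and 0.03 and for replicate 4 the best match had another number. With the replicate number as a block 10 of the 33 genes were called higher (7.36% of all genes), and 1002 higher and 1340 lower over all genes against 383 and 428. Of 300 values of the 15 genes given array by array, 9 turned sign, all in genes with differences under 0.1. Ddx58 was -0.0122 under normexp and ran from -0.0036 to 0.1288 with 1 array left out. Adar was -0.0065 under quantile normalization and ran from -0.0222 to 0.0569. Ifi35 was -0.0347 without both arrays numbered 3 and ran from -0.0114 to 0.1476. The median of the 33 ran from 0.28 to 0.51 with 1 array left out. Calls over all genes were 98 higher and 125 lower without a filter, 21 and 35 without both arrays numbered 3, and 211 and 119 with median scaling. The cause of these changes was not tested.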
